A study of Mus musculus with 4 samples.

Results

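The genes described here are 10 interferon-inducible GTPase genes of the mouse, taken by name from the 50600 genes of the deposited count tables: Irgm1, Irgm2, Igtp, Iigp1, Ifi47, Tgtp1 and Tgtp2 of the immunity-related GTPase (IRG) family, and Gbp2, Gbp3 and Gbp7 of the guanylate-binding protein (GBP) family. All 10 were found in the files, each under 1 identifier. Their RNA was measured in 4 libraries of 1 group, mouse Th17 cells (the interleukin-17-producing class of helper T cell, strain C57BL/6NJ), numbered as biological replicates 1 to 4. A protocol for differentiating CD4+ T cells is linked in the labels, which give 1 donor identifier for the 4 biosamples, no treatment and no time. Output names recorded in the headers hold a 2-hour tag with no stated starting point. With 1 group and no untreated or interferon-treated counterpart, levels can be described and libraries compared, but no induction can be measured. Levels are given in TPM, which divides counts by exon length and scales each library to a sum of 1e6. Different genes can then be compared as far as that length fits. It covers all annotated exons of a gene, and no other length was tried. The X-linked Xist, which female cells express, stood at 0.791, 0.602, 142 and 76.55 TPM in replicates 1 to 4, and the Y-linked Ddx3y at 305, 213, 0.914 and 1.39 TPM. Replicates 1 and 2 thus had the pattern of male cells and replicates 3 and 4 that of female cells, which goes against a single donor animal for the 4 libraries. Within each pair the labels do not tell if the libraries were separate animals or cultures, so SDs and p-values describe only the spread among these 4 libraries, in which sex is one difference; its part in the levels was not tested.

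Interferon gamma binds its receptor, the Janus kinases JAK1 and JAK2 become active, and the signal reaches short palindromes in DNA called GAS elements. Type I interferon acts mainly through a complex holding STAT2 and IRF9 that binds the interferon-stimulated response element (ISRE), which IRF1 can also bind. IRG and GBP proteins are among the most strongly induced products of both routes in many cell types. They gather on the vacuoles of intracellular parasites and bacteria and help to destroy them. The IRGM proteins are regulators that sit on the cell's own membranes and hold the effector IRGs in the inactive, GDP-bound state. In CD4 T cells Irgm1 is known for keeping activated cells alive when they meet interferon gamma.

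The sequence that separates the IRGM regulators from the effectors is the first GTP-binding loop, where the regulators carry methionine in place of the usual lysine. The 24 coding bases of that loop in GENCODE release M21 are shown for 9 of the members, 5′ to 3′ on the coding strand, because they give the division used for ordering the results. Capitals mark the codon that differs.
Irgm1: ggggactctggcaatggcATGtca
Irgm2: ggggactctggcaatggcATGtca
Igtp: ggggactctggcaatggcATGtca
Ifi47: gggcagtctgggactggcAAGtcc
Tgtp1: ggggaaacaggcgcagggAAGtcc
Tgtp2: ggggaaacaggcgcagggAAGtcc
Gbp2: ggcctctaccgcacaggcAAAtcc
Gbp3: ggtttatatcgtacagggAAGtcc
Gbp7: ggactataccgtacgggaAAAtcc

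The 3 IRGM genes had the same 24 bases, with the methionine codon ATG at codon 89 of Irgm1 and Irgm2 and at codon 97 of Igtp. The other 6 genes had a lysine codon there, AAG or AAA. Tgtp1 and Tgtp2 were also identical over the loop, and their annotated reading frames encoded identical proteins over all 415 residues. Translated frames of Irgm2 and Igtp shared 61.0% of aligned residues, Irgm1 shared 49.1% with Irgm2 and 50.1% with Igtp, and Ifi47 shared 42.4% with Tgtp1. Among the GBP genes Gbp3 and Gbp7 shared 73.1%, and Gbp2 shared 53.5% with Gbp3. Only Gbp2 of these 3 ends in a CaaX box, the signal for attachment of a lipid anchor.

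The second set of sequences is the stretch before the start of transcription. It is shown because Igtp, Irgm2, Tgtp1 and Tgtp2, in 2 clusters of chromosome 11, carry a similar stretch. The promoter sequences are those of RefSeq on GRCm38.p6, the assembly that mm10 stands for, and 9 of the 10 members matched. The 250 bases before each start were searched on both strands for an ISRE core, GAAANNGAAA (TTTCNNTTTC on the other strand), and for a GAS core, TTCNNNGAA. The letters of 2 matches of 1 motif can overlap, as they do in Irgm1 and Gbp3. Capitals mark the matches, and each stretch runs up to 15 bases beyond the outermost ones. RefSeq starts can differ from those of the counted gene models: the whole stretches of Irgm1, Irgm2 and Tgtp1 lie inside those models.
Igtp, chr11:58199496-58199546, plus strand: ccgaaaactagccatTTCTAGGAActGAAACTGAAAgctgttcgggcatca
Irgm2, chr11:58214887-58214937, plus strand: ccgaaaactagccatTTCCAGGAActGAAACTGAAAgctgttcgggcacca
Tgtp1, chr11:48992299-48992349, minus strand: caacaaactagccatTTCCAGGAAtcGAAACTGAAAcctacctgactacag
Tgtp2, chr11:49064258-49064308, minus strand: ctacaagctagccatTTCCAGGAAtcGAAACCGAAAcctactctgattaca
Irgm1, chr11:48871421-48871465, minus strand: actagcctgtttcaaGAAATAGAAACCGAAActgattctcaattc
Gbp2, chr3:142620589-142620628, plus strand: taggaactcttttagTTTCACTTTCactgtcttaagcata
Gbp3, chr3:142559984-142560029, plus strand: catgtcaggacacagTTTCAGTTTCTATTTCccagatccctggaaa
Gbp7, chr3:142530215-142530307, plus strand: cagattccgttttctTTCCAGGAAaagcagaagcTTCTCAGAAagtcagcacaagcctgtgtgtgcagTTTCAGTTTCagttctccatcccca

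An ISRE core was present before the start of 8 of the 9 members and a GAS core before 5 of them, against 3.46% and 8.13% of the 27025 genes in the same table. Both motifs stood together in Igtp, Irgm2, Tgtp1, Tgtp2 and Gbp7, against 0.459% of all genes. In the 4 IRG genes with both, the GAS core stood before the ISRE core with 2 bases between them. The ISRE core lay 34 bases before the start in Igtp, 64 in Irgm2, 77 in Tgtp1 and 70 in Tgtp2. In the 3 GBP genes the ISRE core lay in the other orientation. The window of Ifi47 held neither motif, nor did the window of the second annotated start of Gbp3. The motifs were not particular to the members. In the same table an ISRE core stood before 2 of 2 other GBP genes and 2 of 6 other IRG genes. It also stood before 7 of 13 antiviral interferon-stimulated genes. A GAS core stood before 1, 2 and 3 genes of these sets. A match is a run of letters and no measured binding site.

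**Figure D1:**
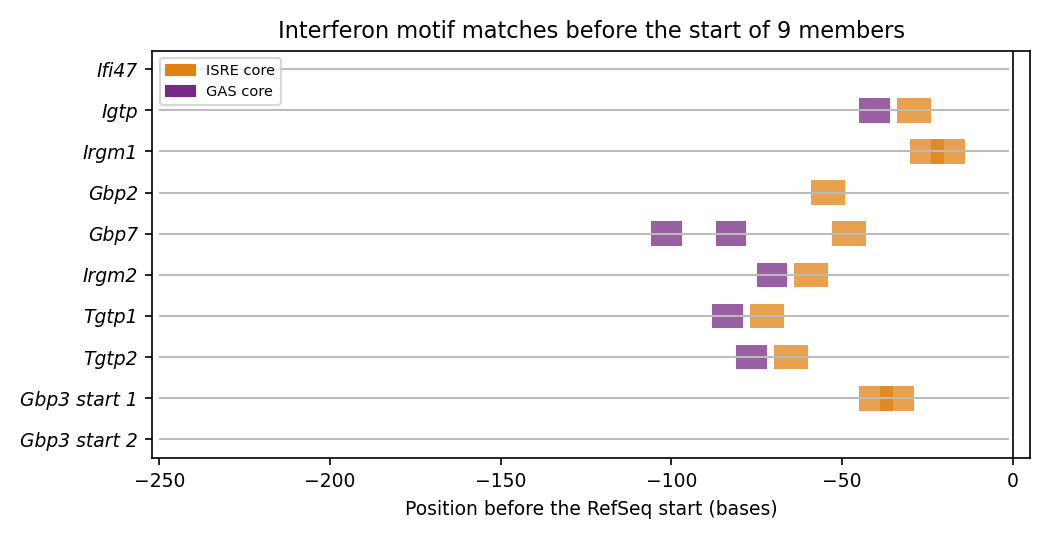
Matches to the ISRE core (orange) and the GAS core (purple) in the 250 bases before the RefSeq starts of 9 members, ordered by level; the x axis is the distance from the start in bases. Of the 9 genes, 8 hold an ISRE core and 5 a GAS core, all within 106 bases of the start; Ifi47 and the second start of Gbp3 hold none.

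Total counts were 36298276, 40652146, 26953724 and 25847970 in replicates 1 to 4, so each member rested on at least 1415 counts in every library. T cell markers stood high in the 4 libraries (Cd3e 226 ± 18.8 TPM and Cd4 364 ± 35.1 TPM, mean ± SD, n = 4 here and below), while Th17 genes stood low: Il17f at 12.4 ± 5.91 TPM, Rora at 9.82 ± 2.49 TPM and Il17a at 5.65 ± 1.20 TPM, with Il23r and Ccr6 on 11 and 15 counts in all. Il17f, at 10.2, 7.04, 11.7 and 20.8 TPM in replicates 1 to 4, was called as varying between libraries by the edgeR test described below (adjusted p = 0.0171). That call was lost without replicate 4 (adjusted p = 1.0), replicate 2 (0.213) or replicate 1 (0.0511).

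All 10 members were abundant. Each had a mean above 1 TPM, and above 1 TPM in every library, whereas 45.2% of protein coding genes reached a mean of 1 TPM. The median member stood at 275 TPM, against 24.9 TPM for the 9831 protein coding genes that reached 1 TPM. Together the 10 genes took 0.373, 0.4195, 0.356 and 0.385% of all counts in replicates 1 to 4. IRG genes gave the larger part: the summed level was 1819 ± 125 TPM for the 3 IRGM regulators, 1643 ± 145 TPM for the 4 effectors and 706 ± 55.1 TPM for the 3 GBP genes.

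**Figure D2:**
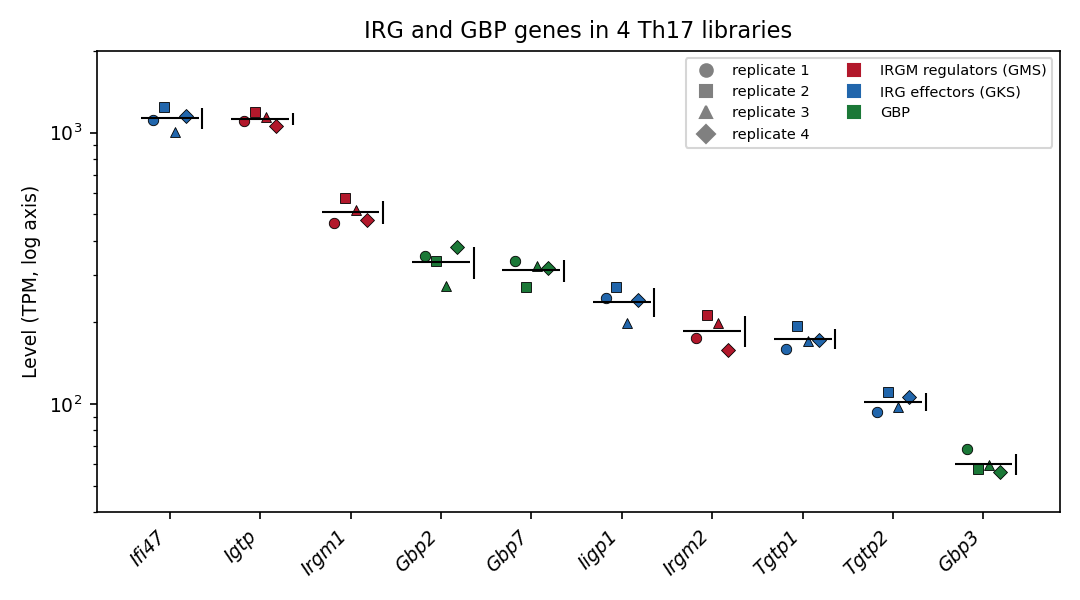
Level of each member in TPM (log axis) in the 4 libraries (symbols), with the mean (horizontal line) and SD (vertical line beside it); colours mark IRGM regulators, effector IRGs and GBP genes. Levels run from 60.4 TPM for Gbp3 to 1128 TPM for Ifi47, and the symbols of Ifi47 and Igtp overlap.

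Among the regulators Igtp, which encodes the protein also called IRGM3, stood at 1107, 1188, 1142 and 1059 TPM in replicates 1 to 4, a mean of 1124 ± 54.8 TPM. The 4 libraries lay close together, and only 107 protein coding genes of 21764 had a higher mean. Irgm1 stood at 466, 574, 518 and 477 TPM, a mean of 509 ± 48.9 TPM. Replicate 2 was highest for both genes. Irgm2 stood at 175, 214, 198 and 159 TPM, a mean of 186 ± 24.4 TPM. In TPM the level of Igtp thus lay above that of Irgm1, and that of Irgm1 above that of Irgm2, in every library. The first of these steps depends on the exon length, 2022 bases for Igtp and 5810 for Irgm1. In counts Irgm1 stood above Igtp, with 113430 against 86945 in all. Within a library Igtp was 6.08 ± 0.511 times as high as Irgm2, its neighbour on the same strand. These 2 genes share 162 exonic bases in the files' annotation (8.01% of Igtp and 4.39% of Irgm2) and 15.9% and 9.16% of their 31-base words; fragments from the shared bases were not counted, so both levels are lower limits there.

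Ifi47, which encodes the effector IRGD, was the highest member by mean TPM. It stood at 1108, 1246, 1006 and 1154 TPM, a mean of 1128 ± 100.1 TPM (rank 106 among protein coding genes). Iigp1, which encodes IRGA6, an effector known for coating parasite vacuoles, stood at 245, 269, 199 and 241 TPM, a mean of 238.5 ± 29.1 TPM. For both genes replicate 2 held the top value and replicate 3 the bottom one.

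Tgtp1 and Tgtp2 are duplicated copies for the effector IRGB6. Tgtp1 stood at 159, 194.5, 170.2 and 172 TPM, a mean of 174 ± 14.7 TPM. Tgtp2 stood at 93.8, 111, 97.7 and 106 TPM, a mean of 102 ± 7.66 TPM. Again replicate 2 was highest for both. The 2 copies kept a narrow ratio, Tgtp1 over Tgtp2, of 1.70, 1.76, 1.74 and 1.63 in replicates 1 to 4. Of the 31-base words of Tgtp1 83.2% also occur in Tgtp2, and of those of Tgtp2 89.2% occur in Tgtp1. Fragments that align to both copies were not counted, so the 2 levels rest on the parts that differ and are uncertain lower limits, and the ratio need not be that of the transcripts.

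Among the GBP genes Gbp2, whose protein can carry a lipid anchor and is known to gather at parasite vacuoles, stood at 352, 336, 273 and 378 TPM, a mean of 335 ± 44.6 TPM. Its lowest library was replicate 3, below the other 3 by more than they differed among themselves. Gbp7 stood at 336, 270.2, 321 and 318 TPM, a mean of 311 ± 28.7 TPM, with replicate 2 lowest. Gbp3 was the lowest member, at 68.2, 57.5, 59.6 and 56.1 TPM, a mean of 60.4 ± 5.41 TPM (rank 2680). In Gbp7, 11.3% of the exonic bases overlap the pseudogene model Gm43802, which had 0 counts, so fragments within them were not assigned to either. Gbp2 and Gbp3 share 4.85% and 5.64% of their 31-base words with other genes.

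The 10 levels in TPM gave an order with steps that held in every library and 3 near ties. Each gene was set against the next lower one within each library, on the log2(TPM + 1) scale, and the signs of the 4 differences were flipped in all combinations (an exact permutation test, two-sided, which cannot give a p below 0.125). In 6 of the 9 pairs the order held in every library (by the exact test p = 0.125 for each, or 0.188 after adjustment over the 9 pairs). The widest of these steps were Igtp above Irgm1 by 1.15 ± 0.08, Tgtp1 above Tgtp2 by 0.76 ± 0.05 and Tgtp2 above Gbp3 by 0.75 ± 0.22. The SDs cover the spread over libraries only. All steps and near ties rest on the exon lengths. In counts Irgm1 stood above Igtp, and Gbp7 above Gbp2 (65856 against 32194 in all). The levels of Tgtp1 and Tgtp2 are uncertain lower limits, so the places of both genes in the order are uncertain too. The smaller steps were Irgm1 above Gbp2 by 0.61 ± 0.28, Gbp7 above Iigp1 by 0.39 ± 0.28 and Iigp1 above Irgm2 by 0.35 ± 0.26. The 3 remaining neighbours differed by less than the SD of the difference: Ifi47 and Igtp by 0.00 ± 0.13 (p = 0.875), Gbp2 and Gbp7 by 0.10 ± 0.25 (p = 0.375) and Irgm2 and Tgtp1 by 0.09 ± 0.15 (p = 0.25 by the exact test). The sign of the difference between Ifi47 and Igtp turned when replicate 2 or replicate 4 was left out.

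Variation between the libraries was then compared with that of genes of like abundance. A gene was called as varying when its deviance at edgeR's trended dispersion had an adjusted p under 0.05 over all tested genes. None of the 10 members was called (edgeR adjusted p = 1.0 for each), against 0.813% of the 11567 genes tested, so the count of 0 among 10 is near the background. Nor did any member reach an unadjusted p of 0.05 by this edgeR test, as 692 of the 11567 tested genes did. The smallest was 0.119, for Gbp2. With DESeq2 size factors in place of TMM scaling 0 members were called as well, and 0 reached an unadjusted p of 0.05. The difference between the highest and lowest library, in log2 CPM on TMM-scaled library sizes, was 0.35 for the median member, against 0.41 for all tested genes and 0.31 for the 3437 tested genes at least as abundant as Gbp3. It was smallest for Igtp (0.22) and Gbp7 (0.27) and largest for Iigp1 (0.60) and Gbp2 (0.66).

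**Figure D3:**
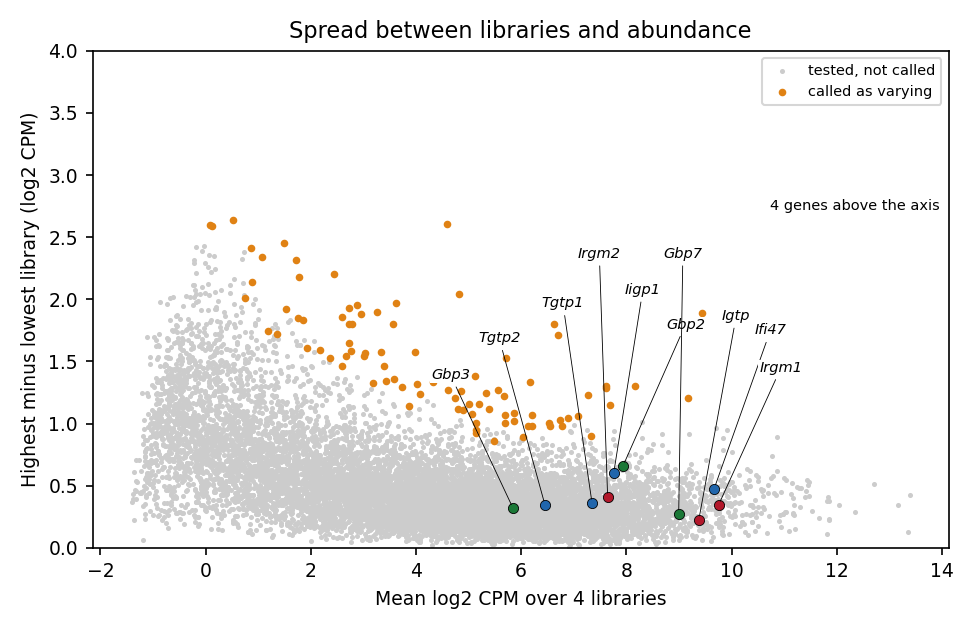
Highest minus lowest library against mean abundance, both in log2 CPM, for the 11567 tested genes (grey), the 94 called as varying (orange) and the members (large points, colours as for the levels); 4 genes lie above the axis. The members lie in the body of the grey points at 0.22 to 0.66.

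Although no single member passed the test, the IRG members and the GBP members differed in which library was highest. All 7 IRG members were highest in replicate 2, where 27.6% of tested genes were highest, and their mean deviation there was 0.20 in log2 CPM. In log2 CPM with TMM scaling or DESeq2 size factors the 4 effectors were lowest in replicate 3, but in TPM and in CPM without TMM scaling only 2 of them were, Ifi47 and Iigp1; Tgtp1 and Tgtp2 were then lowest in replicate 1. None of the GBP members was highest in replicate 2: Gbp3 and Gbp7 were highest in replicate 1 and Gbp2 in replicate 4. The count of 7 IRG genes highest in replicate 2 was the same for CPM without TMM scaling, TPM and DESeq2 size factors. These counts describe 4 libraries, and the difference between the IRG and GBP members was not tested.

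The other GBP genes, most of them on chromosome 5, had another pattern. In log2 CPM with TMM scaling 6 of the 7 tested were highest in replicate 3, against 30.3% of all tested genes. Replicate 4 was lowest for 4 of them, against 25.2% of all tested genes. Gbp4 stood at 332, 282, 446 and 264 TPM in replicates 1 to 4, Gbp9 at 157, 94.5, 172 and 126 TPM, Gbp8 at 77.1, 51.9, 95.9 and 55.3 TPM and Gbp11 at 55.4, 45.7, 78.3 and 35.3 TPM. None of these genes was called either (smallest edgeR adjusted p = 0.201). By the same test 3 of the 7 had an unadjusted p under 0.05, against 692 of all 11567 tested genes. Gbp8 and Gbp11 share 31.1% and 34.3% of their 31-base words with other genes, Gbp6 (54.9 ± 9.67 TPM) 74.2% and Gbp10 (9.78 ± 1.56 TPM) 89.8%. Their levels are therefore uncertain. Of the words of Gbp10 80.8% also occur in Gbp6, so the genes counted above include close copies. Gbp5, on chromosome 3 like the members, stood at 74.8 ± 5.42 TPM, with 0.13 between its highest and lowest library in log2 CPM. Gbp2b, between Gbp3 and Gbp2, had 3 counts in all.

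**Figure D4:**
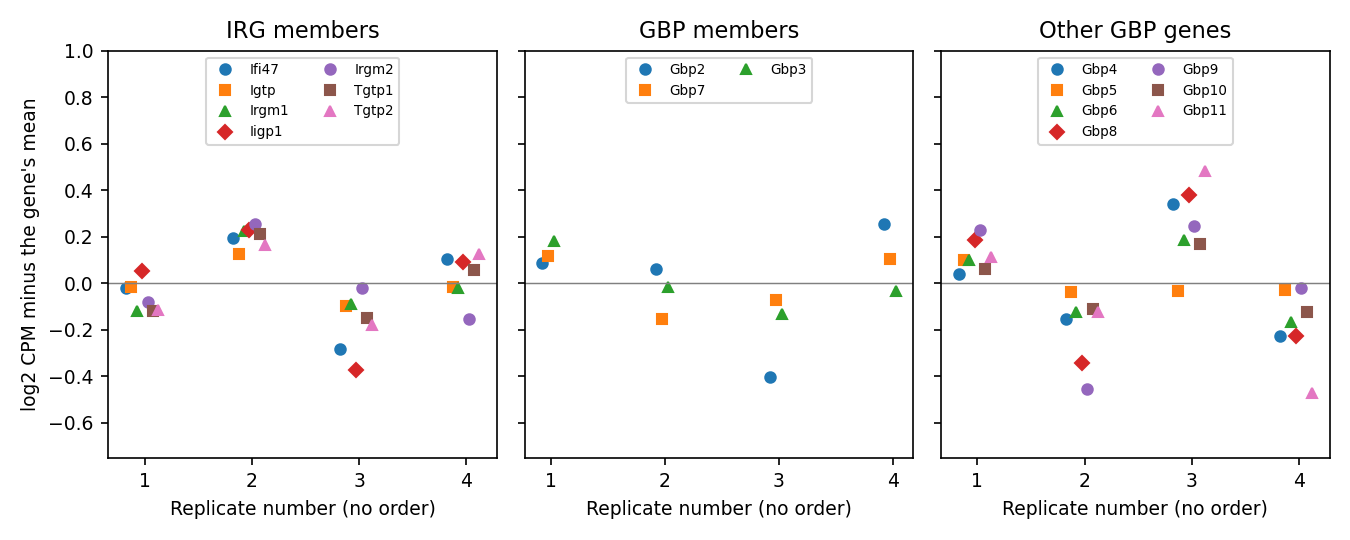
Deviation of each gene from its own mean over the 4 libraries, in log2 CPM, for the 7 IRG members, the 3 GBP members and the 7 other GBP genes tested; replicate numbers on the x axis have no order. All 7 IRG members are highest in replicate 2, while 6 of the 7 other GBP genes are highest in replicate 3.

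A likeness search named the non-members closest to the members' mean profile by the root mean square difference of centred log2 CPM over the 4 libraries. The closest 5 were Socs6, Pop7, Sephs1, Rp2 and Emd, at 0.0051 to 0.014. With 4 libraries this measure separates little: 828 of 6034 candidate genes lay within 0.1.

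The IRG members other than Iigp1 lie in 2 clusters of chromosome 11 in mm10. Irgm1 (48861968 to 48871683, minus strand), Tgtp1 (48985327 to 48994172, minus), Tgtp2 (49057194 to 49064206, minus) and Ifi47 (49076587 to 49096974, plus) span 235 kb. Between them lie 9 further annotated genes, of which 6 reached a mean of 1 TPM, and none of the 9 exceeded 50.1 TPM, the level of the proteasome activator copy Psme2b. The IRG family genes among these 9 were Gm12185 (26.2 ± 2.31 TPM), 9930111J21Rik2 (23.3 ± 1.78 TPM), 9930111J21Rik1 (20.9 ± 3.12 TPM) and Gm5431 (0.211 ± 0.118 TPM). The Rik pair share 88.3% (Rik1) and 69.5% (Rik2) of their 31-base words with other genes. The counts cover annotated exons, and exons of Tgtp1 overlap Gm12185 over 223 bases and those of Ifi47 overlap Olfr56 over 111 bases on the same strand.

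Igtp (58199556 to 58207591) and Irgm2 (58199618 to 58222782) form the second cluster, both on the plus strand. Gm12250, the gene for the effector IRGB10 (typed as a processed pseudogene in release M21), lies before them, from 58187739 to 58189012, and stood at 448, 573, 454 and 437 TPM in replicates 1 to 4. Its level was near that of Irgm1 and, like that of the 7 IRG members, highest in replicate 2. The other IRG genes did not share this pattern as a set. In log2 CPM with TMM scaling 2 of the 7 tested, Gm12250 among them, were highest in replicate 2. Replicate 3 was highest for 3 of them, and replicates 1 and 4 for 1 each. The GBP members lie on the plus strand of chromosome 3, with Gbp7 from 142530342 to 142550149, Gbp3 from 142560026 to 142573209 and Gbp2 from 142620602 to 142638008. Of the 10 other IRG genes listed, 6 reached 1 TPM, and F830016B08Rik had 0 counts, which allows up to 0.116 CPM in the shallowest library.

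Genes of the interferon pathways were present on the receptor and factor side, while the listed ligand genes, Ifng and Ifnb1, had few counts or none. Other interferon genes were not in the lists. Ifng, the gene for interferon gamma, had 26 counts in all (0.548 ± 0.318 TPM) and Ifnb1, for interferon beta, had 0 counts in every library. The receptor chains stood at 255 ± 28.7 TPM for Ifngr1, 183 ± 16.3 TPM for Ifngr2, 118 ± 14.9 TPM for Ifnar1 and 70.15 ± 10.3 TPM for Ifnar2. Of the kinases Jak1 stood at 683 ± 18.3 TPM, Jak2 at 171 ± 19.0 TPM and Tyk2 at 29.8 ± 4.13 TPM. Stat2, of the type I route, stood at 113 ± 27.6 TPM.

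The interferon regulatory factors ranged widely. Irf1, which binds the ISRE, stood at 753, 972, 1111 and 675.5 TPM in replicates 1 to 4, highest in replicate 3. In log2 CPM with TMM scaling its replicates 2 and 3 were nearly level, at 10.191 and 10.216. Replicates 1 and 4 then stood at 9.779 and 9.688. Irf7 stood at 238.5 ± 13.9 TPM, Irf8 at 222 ± 16.95 TPM, Irf9 at 191.5 ± 26.0 TPM, Irf3 at 116 ± 14.2 TPM and Irf2 at 18.5 ± 2.58 TPM. Socs1, the feedback inhibitor of interferon gamma signalling, stood at 1847, 2116, 1643 and 1926 TPM, above every member in every library, and was highest in replicate 2, like the IRG members. Of the 15 interferon gamma signalling genes 12 reached 1 TPM and were tested, and 10 of the 11 type I signalling genes did so; none of either list was called as varying (smallest edgeR adjusted p = 1.0 and 0.956). Ciita, the class II transactivator that interferon gamma induces in many cells, had 6 counts in all.

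The median of the 16 antiviral interferon-stimulated genes was 90.0 TPM, against 275 TPM for the members, and all 16 reached 1 TPM. Their highest were Isg15 at 406 ± 69.6 TPM, Samhd1 at 290.5 ± 14.5 TPM, Ifit1 at 247 ± 49.8 TPM and Zbp1 at 246 ± 17.9 TPM, each below Ifi47, Igtp and Irgm1 in the mean. In log2 CPM with TMM scaling 8 of the 16 were highest in replicate 4, against 25.4% of tested genes, and 1 in replicate 2. That count depends on the scaling: in TPM some of them, such as Samhd1 and Oasl2, were highest in replicate 3 instead. By the edgeR test 4 had an unadjusted p under 0.05, against 692 of all 11567 tested genes, and none was called (smallest edgeR adjusted p = 0.345). The 9 class I antigen presentation genes had a median of 400 TPM, led by B2m, H2-K1, H2-D1 and Tap1 (11260 ± 1096, 4701 ± 238.5, 3904 ± 148 and 431 ± 60.0 TPM), and none was called.

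The partners of the IRG and GBP proteins in autophagy were all present. The ATG8 conjugation machinery is needed to place IRG and GBP proteins at their target vacuoles, and all 14 genes of that list reached 1 TPM, with a median of 56.6 TPM and none called as varying. Sqstm1, the ubiquitin-binding adaptor, stood at 490 ± 24.4 TPM, Gabarap at 313 ± 37.3 TPM, Traf6 at 86.6 ± 3.01 TPM and Atg16l1 at 68.7 ± 17.0 TPM. In log2 CPM with TMM scaling 10 of the 14 were highest in replicate 2, as were the IRG members, against 27.6% of tested genes. In TPM 2 of these 10, Map1lc3b and Trim21, were highest in replicate 3 instead. Of the 8 genes of the caspase-11 and inflammasome list, which act with GBP proteins in macrophages, 5 reached 1 TPM: Gsdmd at 96.6 ± 15.3 TPM, Aim2 at 27.0 ± 4.00 TPM, Pycard at 15.7 ± 2.10 TPM, Casp4, which encodes caspase-11, at 8.90 ± 2.15 TPM and Casp1 at 2.85 ± 0.951 TPM. Of the giant interferon-inducible GTPase list 3 of 5 genes were in the files; Gm8995 stood at 757 ± 71.4 TPM, Gvin1 at 1.28 ± 0.247 TPM and Gm4070 at 0.155 ± 0.0762 TPM. These 3 genes share 33.8%, 99.7% and 98.6% of their 31-base words with other genes, and fragments aligned to several places were not counted, so the values of Gvin1 and Gm4070 cannot be read as low expression.

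**Figure D5:**
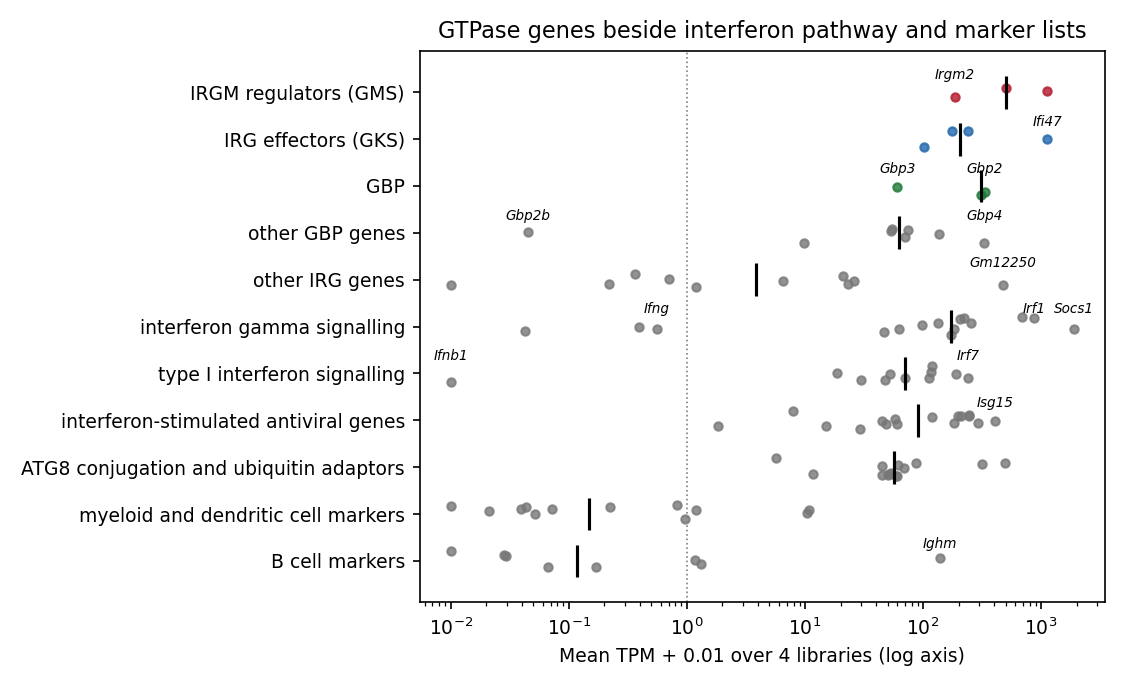
Mean TPM plus 0.01 (log axis) of each gene, 1 point a gene, for the 3 groups of members and for lists of family, pathway and marker genes; black bars are medians and the dotted line marks 1 TPM. The members lie between 60.4 and 1128 TPM, within the range of the signalling lists, while Ifng and Ifnb1 lie below 1 TPM.

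Macrophages and B cells can express these GTPases at high levels, so their markers were set beside the members. The summed level of 12 myeloid and dendritic markers was 24.8, 21.3, 29.6 and 22.2 TPM in replicates 1 to 4, most of it from Cd74 and Cd68 (10.7 ± 1.27 and 10.4 ± 5.33 TPM); Lyz2 and Csf1r had 2 counts each and Fcgr1 had 0. The 8 B cell markers summed to 126, 156, 148.5 and 134 TPM, of which Ighm gave 124, 152, 145 and 132 TPM; Ms4a1 had 0 counts. This sum, like the IRG members, was highest in replicate 2. Of 7 NK and CD8 T cell markers 4 reached 1 TPM, led by Cd8b1 at 27.0 ± 4.86 TPM, with a sum of 38.1, 48.2, 35.3 and 46.3 TPM. Cd8a, of the same list, had 32 counts in all, and Klrb1c and Ncr1 had 0. The 6 stromal and endothelial markers summed to 82.6, 90.4, 94.9 and 78.8 TPM, most of it from Pecam1 (78.6 ± 8.38 TPM). The part of other cells in the members' levels was not tested. In these bulk libraries more cells expressing a gene and more RNA of it per cell cannot be told apart.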

How the data were processed

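RNA of 4 Th17 libraries was measured. Per the file headers, the authors ran featureCounts 1.4.6-p4 over exons of GENCODE mouse release M13. The deposited values are raw fragment counts: read pairs with both ends mapped, strand option 2, 1 library per file. The recorded command keeps the defaults that leave out multiply aligned fragments and those on more than 1 gene. Alignment file names carry the name STAR; no version was found in the labels or headers. The build is mm10, per the labels.

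From the counts, TPM and CPM were computed over all genes and total counts of 25847970 to 40652146. Symbols of release M21 were matched to 50376 of 50600 identifiers. Shares of 31-base words in transcripts of other genes came from the M21 transcripts. Variation was tested with edgeR 4.0.16 (R 4.3.3; intercept only, its expression filter, TMM, trended dispersion, chi-square with 3 degrees of freedom, Benjamini-Hochberg over all tested genes), a step tested on simulated data. No pair of libraries was a duplicate deposit (chi-square per degree of freedom of their counts 16.5 to 53.5), which does not show that they are independent. A count of 0 was given a floor of 3 counts, 0.0738 to 0.116 CPM, and covers counting error only. Alternatives were other scalings (DESeq2 1.42.0 size factors), no filter, a common dispersion, other denominators, another pseudocount and leaving out each library.

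Some list genes are not reported here. The members, lists and tests were chosen with earlier results of these data known. Named genes were all members, the 4 highest genes of each family and pathway list and its receptors, kinases, STAT and IRF genes, and varying genes. The 5 genes of most like pattern were also named, among protein coding genes of 1 TPM or more whose log2 CPM range was at least that of the members' mean profile. The marker genes named are not the highest of each marker list. Further family, marker and pathway genes were named after their values were seen. Tables were made with pandas 2.3.3 and numpy 2.4.6 in Python 3.11.15, exact tests with scipy 1.17.1 and plots with matplotlib 3.10.9.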

Additional observations from a re-analysis of the deposited data

Results flagged for a closer look

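A library was looked for that stood far from the other 3, by Dixon's 95% limit on the gap over the range, in 95 values: the members, their sums and the family and pathway genes of 1 TPM or more. None of the 10 members had one. It was found in 3 values, where chance gives about 1 in 20. Gm12250 stood at 573 TPM in replicate 2 against 437 to 454 TPM in the others, 9930111J21Rik1 at 25.5 TPM in replicate 3 against 19.1 to 19.7 TPM, and Irgq at 7.90 TPM in replicate 3 against 6.06 to 6.21 TPM.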

How the results depend on the processing

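The median level of the members was 275 TPM, 294 TPM with the sum taken over protein coding genes, and 270 to 280 TPM when 1 library was left out (269.7 to 279.9). In FPKM on TMM-scaled library sizes, another unit, it was 80.6, and all 10 members stood at 0.292 to 0.295 of their TPM value. FPKM divides by the same exon lengths, so it could not change the order within a library and is no check of it. The order under other exon lengths was not tried. All 10 members reached 1 TPM in every library. The 6 neighbouring pairs with 1 sign in every library were 6 with a pseudocount of 0.1 and 6 to 8 when 1 library was left out. The difference Ifi47 minus Igtp turned to -0.02 (-0.019) without replicate 2 and to -0.04 (-0.038) without replicate 4, reaching 0.065 without replicate 3, and no other pair changed direction. The number of members called as varying was 0 with DESeq2 size factors, without the expression filter, with a common dispersion and without each library in turn; the smallest unadjusted p was 0.0508, for Gbp2 without replicate 2. Over all genes 94 were called, 256 with a common dispersion and 35 to 60 without 1 library (35 without replicate 4, 39 without replicate 2, 59 without replicate 3, 60 without replicate 1). No paired analysis was possible because there is 1 group. Scalings other than TMM were tried for the library of highest or lowest level after its values were seen; of the 4 effectors 4 were lowest in replicate 3 with DESeq2 size factors and 2 in TPM or in CPM without TMM scaling.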
